A study of Homo sapiens with 9 samples.

Results

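In cultures of the human keratinocyte line HaCaT, 65 protein-coding genes gave almost no reads in 2 of the 3 libraries of the unsorted line and were expressed in every one of the other 7 libraries. They were chosen on those measured values. A gene was a member when it had at most 3 counts in control replicate 1 and at most 3 in control replicate 2, and at least 1 CPM (the gene's count divided by the library total and multiplied by 1000000) in each of the other 7 libraries. Among the 11046 protein-coding genes that reached 1 CPM in all 7 of those libraries, 71 met both conditions, or 0.643%. The genes TLR2, PDZK1IP1, PIGR, CXCL5, SGCE and GBP5 were then left out by name or name stem, which left 65. Since the rule fixed the low values of control replicates 1 and 2 and the floor in the others, those differences are given below as a description with no test.

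HaCaT is an established line of spontaneously immortalised keratinocytes from adult human skin. Total RNA was sequenced from 3 libraries of a subpopulation labelled BD, 3 of a subpopulation labelled NBD and 3 of the unsorted line labelled control, to describe cell states linked to progenitors. BD and NBD were separated by fluorescence-activated sorting, and neither abbreviation is spelled out in the labels. All 9 libraries came from cells in high-glucose DMEM with low-calcium serum. No group carried a drug treatment or an engineered change in the labels. Separate cultures for the replicates are not stated in the labels, and the p-values below therefore reflect library-to-library spread that may be technical. A pair of small-scale RNA kits is named, and since the kit of each library is not given, kit and library cannot be told apart.

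A gene can be quiet because its promoter lies in closed chromatin or carries DNA methylation at CpG dinucleotides, or because the factor that drives it is missing. Promoters rich in CpG are typical of genes used in many tissues, and promoters poor in CpG are more often those of tissue-restricted or inducible genes. Genes for class II antigen presentation are driven by the coactivator CIITA together with the RFX factors and the CCAAT-binding factor NF-Y, and keratinocytes switch them on mainly in inflamed skin.

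Promoter windows of 8 of the 65 genes are printed here because they show both kinds of start site found among them. Each runs from 250 bases before to 50 bases after the RefSeq start, on the gene's own strand, in GRCh38.p14, and is written 5′ to 3′. For the first 6, capitals mark each CG dinucleotide. They are HLTF (chr3:149086484-149086783, minus strand), PDGFD (chr11:104164098-104164397, minus strand), SYCP2 (chr20:59933588-59933887, minus strand), ARMCX1 (chrX:101550297-101550596, plus strand), TRIM31 (chr6:30113041-30113340, minus strand) and VNN2 (chr6:132763406-132763705, minus strand). The first 4 hold 27, 26, 41 and 14 CG dinucleotides, and TRIM31 and VNN2 hold 1 and 2.
HLTF: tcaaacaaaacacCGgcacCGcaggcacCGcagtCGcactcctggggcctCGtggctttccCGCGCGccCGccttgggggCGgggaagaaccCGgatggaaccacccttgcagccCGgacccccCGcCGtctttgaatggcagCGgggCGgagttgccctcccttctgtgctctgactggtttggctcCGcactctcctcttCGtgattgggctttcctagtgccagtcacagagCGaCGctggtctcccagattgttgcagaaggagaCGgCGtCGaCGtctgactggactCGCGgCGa
PDGFD: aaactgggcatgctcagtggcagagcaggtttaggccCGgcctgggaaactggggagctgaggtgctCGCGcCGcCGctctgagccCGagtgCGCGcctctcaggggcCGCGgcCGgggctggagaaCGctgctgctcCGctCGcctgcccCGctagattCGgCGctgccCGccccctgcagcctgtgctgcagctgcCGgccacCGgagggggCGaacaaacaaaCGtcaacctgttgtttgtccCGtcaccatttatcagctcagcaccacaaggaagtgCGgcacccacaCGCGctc
SYCP2: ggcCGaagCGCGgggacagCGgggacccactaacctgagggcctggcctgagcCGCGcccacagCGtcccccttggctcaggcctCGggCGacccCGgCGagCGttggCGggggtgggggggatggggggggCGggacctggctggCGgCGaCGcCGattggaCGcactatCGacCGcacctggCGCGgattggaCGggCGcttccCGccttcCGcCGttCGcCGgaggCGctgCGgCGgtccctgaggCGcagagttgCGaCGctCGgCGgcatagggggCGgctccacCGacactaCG
ARMCX1: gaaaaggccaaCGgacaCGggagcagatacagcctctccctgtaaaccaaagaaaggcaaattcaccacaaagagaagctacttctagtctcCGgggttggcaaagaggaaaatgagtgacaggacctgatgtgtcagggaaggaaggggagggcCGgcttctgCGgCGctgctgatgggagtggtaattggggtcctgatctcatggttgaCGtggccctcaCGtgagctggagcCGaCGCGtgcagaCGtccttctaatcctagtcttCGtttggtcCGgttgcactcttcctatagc
TRIM31: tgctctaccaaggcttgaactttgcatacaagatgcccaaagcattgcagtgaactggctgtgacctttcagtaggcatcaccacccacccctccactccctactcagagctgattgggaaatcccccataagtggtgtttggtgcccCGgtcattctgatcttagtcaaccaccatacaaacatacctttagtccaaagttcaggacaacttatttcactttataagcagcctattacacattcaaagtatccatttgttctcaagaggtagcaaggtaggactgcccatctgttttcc
VNN2: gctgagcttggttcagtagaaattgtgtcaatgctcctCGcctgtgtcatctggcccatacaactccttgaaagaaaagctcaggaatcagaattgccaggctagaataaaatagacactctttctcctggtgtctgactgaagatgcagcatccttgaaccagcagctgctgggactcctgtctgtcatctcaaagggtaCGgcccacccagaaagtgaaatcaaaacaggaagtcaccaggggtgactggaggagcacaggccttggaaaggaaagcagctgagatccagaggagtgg

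For the class II genes HLA-DRB1 (chr6:32589799-32590098, minus strand) and CD74 (chr5:150412861-150413160, minus strand), capitals mark CCAAT or its reverse complement ATTGG, the letters that NF-Y recognises. HLA-DRB1 has 1 of each and CD74 has 1 CCAAT. A match is a description of the letters and not a shown site of binding.
HLA-DRB1: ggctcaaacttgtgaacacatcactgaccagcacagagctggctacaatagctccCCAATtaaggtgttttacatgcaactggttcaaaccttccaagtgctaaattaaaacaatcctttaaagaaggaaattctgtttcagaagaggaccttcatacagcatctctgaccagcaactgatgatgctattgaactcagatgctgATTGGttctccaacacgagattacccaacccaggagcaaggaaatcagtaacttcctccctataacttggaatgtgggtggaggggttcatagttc
CD74: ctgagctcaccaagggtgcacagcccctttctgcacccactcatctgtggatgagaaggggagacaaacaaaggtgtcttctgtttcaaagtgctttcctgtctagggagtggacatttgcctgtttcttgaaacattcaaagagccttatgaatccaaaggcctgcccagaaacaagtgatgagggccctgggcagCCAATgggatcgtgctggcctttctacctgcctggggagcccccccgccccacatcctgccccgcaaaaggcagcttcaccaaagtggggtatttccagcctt

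Total counts were 25754757 to 28948743 in BD, 25862752 to 29512856 in NBD, and 18054999, 17128797 and 25782938 in control replicates 1, 2 and 3. In control replicates 1 and 2, 3 counts correspond to 0.166 and 0.175 CPM. The mitochondrial rRNA share was lowest in those libraries, at 12.3% and 11.9%, against 17.3% to 28.9% in the other 7. All 11 keratinocyte markers examined, KRT5, KRT14 and TP63 among them, were detected in all 9 libraries, at 71.0 CPM or more. They were not all at a like level in control replicates 1 and 2: KRT5 had 1100 and 1290 CPM there against 279 to 748 CPM in the other 7, COL17A1 548 and 597 CPM against 159 to 356 CPM, and TRIM29 71.0 and 84.1 CPM against 165 to 312 CPM. Of the other cell types looked for, the blood cell marker CD14 had 1.11 CPM in control replicate 1 and 0.642 CPM in control replicate 2, against 3.75 to 6.87 CPM elsewhere, while LYZ did not exceed 0.349 CPM and PTPRC and CD3E did not exceed 0.152 CPM in any library. In the same order, the sum of 4 endothelial markers was 2.82 and 1.93 CPM against 6.30 to 18.9 CPM, with CDH5 at 1.16 and 0.817 CPM against 5.53 to 18.9 CPM. VWF, on the same list, went the other way, at 1.66 and 1.11 CPM against 0.0691 to 0.657 CPM, and KDR and PECAM1 did not exceed 0.169 CPM. The sum of 6 fibroblast markers was 0.775 and 1.28 CPM against 2.71 to 5.04 CPM. COL1A1 stood at 0.277 and 0.759 CPM against 1.05 to 3.77 CPM, and LUM at 0.111 and 0.175 CPM against 0.309 to 1.12 CPM. The rest of that list did not follow. COL3A1 overlapped, at 0.332 and 0.175 CPM against 0.19 to 1.31 CPM. COL1A2 had 0.175 CPM in control replicate 2 and at most 0.0387 CPM in the other 7, and DCN and PDGFRA did not exceed 0.0554 CPM. The part of these shifts, and of the lower depth, in the results below was not tested. In bulk RNA, fewer cells that express a gene and less RNA per cell cannot be told apart.

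The 65 genes together gave 46 and 49 counts in control replicates 1 and 2 and between 7691 and 16009 counts in each of the other 7 libraries, with 15439 in control replicate 3. Control replicates 1 and 2 are called the low libraries below. As a summed level this was 2.55 and 2.86 CPM against 388, 434 and 517 CPM in BD, 445, 297 and 542 CPM in NBD and 599 CPM in control replicate 3. No count at all was found for 23 genes in both low libraries. The higher of the 2 counts was 1 for 19 genes, 2 for 11 and 3 for 12. Control replicates 1 and 2 differed from each other beyond counting noise over all genes (chi-square per degree of freedom 14.9) and are counted as 2 libraries. Of the 9 pairs within a group, theirs had the lowest value, and their pairs with control replicate 3 had the highest (191 and 187). The value also rises with depth, which was lowest in control replicates 1 and 2, and pairs across groups were not compared. The labels do not say whether the 3 control libraries came from the same stock or passage of the line.

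**Figure D1:**
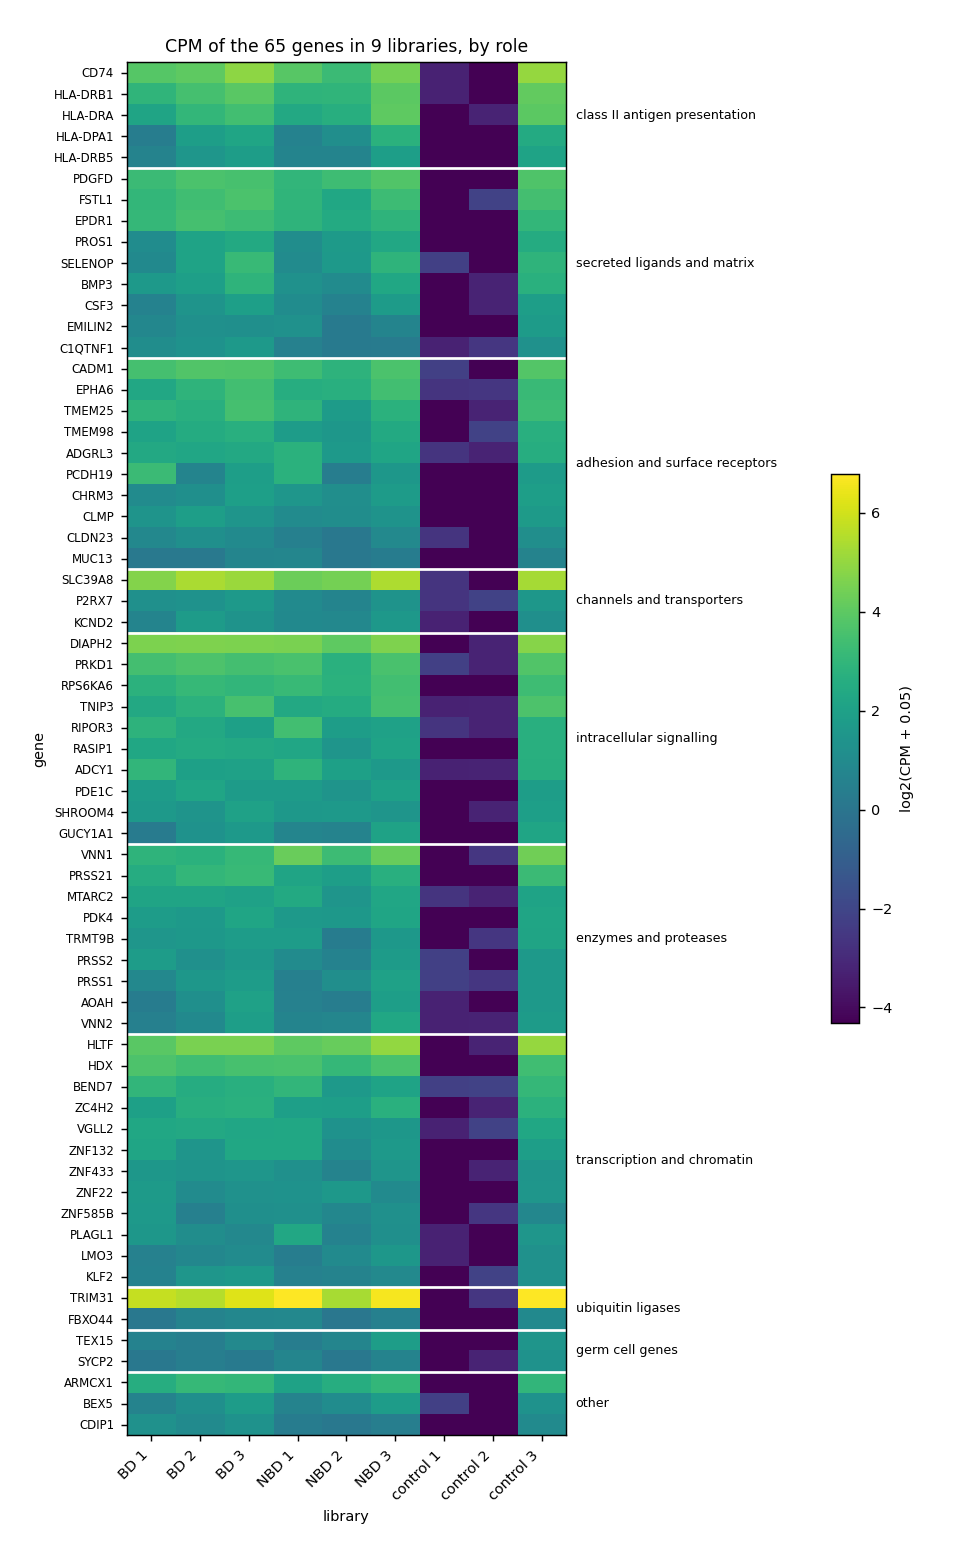
Level of the 65 genes in 9 libraries, as log2(CPM + 0.05), with genes in rows grouped by role and libraries in columns. The columns of control replicates 1 and 2 are dark in every row, as the selection requires, and control replicate 3 has the colours of the 6 sorted libraries.

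Per kilobase of exon, the members stood at a median of 0.890 CPM per kb over the 7 expressing libraries, against 5.79 CPM per kb for all 11046 expressed protein-coding genes. The set therefore lies mostly in the lower part of the expressed range, and 40 of the 65 genes had a median under 5 CPM. For the genes of higher level, the expected count is given beside the observed ones. It is the median CPM of the 7 libraries times the depth of the low library.

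The gene with the highest level per length was TRIM31, a RING-type ubiquitin ligase that acts in innate immune signalling (chromosome 6, 30102897 to 30113106, GRCh38). It stood at 55.5, 46.0 and 75.0 CPM in BD, 110, 40.4 and 97.9 CPM in NBD and 108 CPM in control replicate 3. It had 0 and 2 counts in control replicates 1 and 2, where its median level would give 1354 and 1285. NBD replicate 1 was the highest library and NBD replicate 2 the lowest, and the BD and NBD ranges overlap. The second ligase component of the set, the F-box gene FBXO44, ran from 1.01 to 1.86 CPM and had no count in either low library.

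Genes of class II antigen presentation gave 5 members. CD74 encodes the invariant chain that escorts class II molecules through the cell (chromosome 5, 150401637 to 150412929). It stood at 14.5, 16.3 and 29.8 CPM in BD, 14.7, 9.43 and 22.2 CPM in NBD and 33.0 CPM in control replicate 3, and had 1 and 0 counts in control replicates 1 and 2 where 295 and 280 would correspond to its median. HLA-DRA, the alpha chain of HLA-DR (chromosome 6, 32439842 to 32445046), stood at 4.37, 8.12 and 10.8 CPM in BD, 5.12, 6.23 and 16.1 CPM in NBD and 15.6 CPM in control replicate 3, with 0 and 1 counts in control replicates 1 and 2. In both genes control replicate 3 and the third libraries of BD and NBD were the high ones, and BD and NBD overlapped.

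The beta chain gene HLA-DRB1 (chromosome 6, 32578769 to 32589848) stood at 7.62, 11.4 and 15.4 CPM in BD, 7.48, 7.62 and 15.9 CPM in NBD and 17.4 CPM in control replicate 3, with 1 and 0 counts in control replicates 1 and 2. HLA-DRB5, a near-identical copy, stood at 1.52, 2.76 and 3.63 CPM in BD, 1.56, 1.55 and 3.66 CPM in NBD and 4.27 CPM in control replicate 3 and had no count in either low library. HLA-DRB1 and HLA-DRB5 can share reads, so how counts divide between them is uncertain. HLA-DPA1, the alpha chain of HLA-DP, stood at 1.26, 3.65 and 4.59 CPM in BD, 1.48, 2.17 and 6.78 CPM in NBD and 5.51 CPM in control replicate 3, again with no count in the low libraries.

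Of the 10 protein-coding genes on a list of class II genes, 7 were expressed in the 7 libraries and 4 of these were silent (CD74, HLA-DRA, HLA-DRB1 and HLA-DPA1), 57.1% against 0.588% of all expressed genes. HLA-DRB5 is not on that list. The list and the members were chosen with results of these data known, so the share is a description. All 7 had a log2 ratio of control replicates 1 and 2 to the other 7 libraries (on CPM + 0.5) below -1, with a median of -3.05, where the median over all expressed genes was 0.08 and 961 of 11046 were below -1. Other genes of the pathway stood lower in control replicates 1 and 2 without being silent. CIITA, the coactivator of class II genes, stood at 1.66 and 1.40 CPM in them and at 5.49 to 25.5 CPM in the others. HLA-DMA, which loads peptide, stood at 0.942 and 0.992 CPM against 6.39 to 13.5 CPM, and HLA-DQB1 at 10.3 and 10.7 CPM against 28.5 to 55.2 CPM.

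HLA-DMB narrowly missed the rule, with 1 and 3 counts in the low libraries and 0.967 CPM in its lowest other library. The RFX genes, whose products bind class II promoters, kept a level in all libraries. RFX5 stood at 47.5 and 50.7 CPM against 73.3 to 102 CPM, RFXANK at 23.4 and 23.2 CPM against 34.5 to 55.2 CPM, and RFXAP at 4.49 and 3.79 CPM against 1.79 to 4.74 CPM. Ranges of the low and other libraries thus separated for RFX5 and RFXANK and overlapped for RFXAP.

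Secreted ligands and matrix proteins gave 9 members. PDGFD, a platelet-derived growth factor (chromosome 11, 103907186 to 104164379), stood at 9.47, 12.5 and 11.6 CPM in BD, 7.93, 9.94 and 13.4 CPM in NBD and 13.3 CPM in control replicate 3. With no count in either low library, its lowest other library was at least 45.3-fold higher than the larger of the 2 limits set by 3 counts per library. EPDR1, an ependymin-related secreted protein (chromosome 7, 37683843 to 37951941), stood at 8.31, 11.4 and 9.84 CPM in BD, 7.36, 5.53 and 7.49 CPM in NBD and 8.22 CPM in control replicate 3, at least 31.6-fold above the same limit. All 3 BD libraries of EPDR1 lay above all 3 NBD libraries. GPR141 overlaps the longest annotated EPDR1 transcript on the same strand, so reads of the pair can be shared, and it stood at 6.54 and 6.83 CPM in the low libraries against 8.13 to 26.1 CPM.

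The anticoagulant protein S gene PROS1 ranged over 2.06 to 5.59 CPM and the elastin-associated matrix gene EMILIN2 over 1.16 to 3.34 CPM, both with no count in the low libraries. FSTL1, a follistatin-like glycoprotein, ranged over 4.83 to 12.5 CPM, and SELENOP, the plasma selenium carrier, over 1.88 to 8.91 CPM. The bone morphogenetic protein gene BMP3 ranged over 2.01 to 7.39 CPM, CSF3, which encodes granulocyte colony-stimulating factor, over 1.47 to 3.77 CPM, and C1QTNF1, a C1q and TNF related protein, over 1.12 to 3.04 CPM. These 5 had 1 to 3 counts in at least 1 low library.

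Adhesion molecules and surface receptors gave 10 members. CADM1, an immunoglobulin-type adhesion molecule, ranged over 7.15 to 14.0 CPM with 3 and 0 counts in control replicates 1 and 2. EPHA6, an Eph receptor, ranged over 4.95 to 10.8 CPM and was 1 of 14 expressed genes of the Eph and ephrin list, the other 13 not being silent. ADGRL3, a latrophilin-type adhesion receptor, ranged over 3.09 to 6.76 CPM, the muscarinic acetylcholine receptor CHRM3 over 2.02 to 3.77 CPM and the junctional protein CLMP over 2.01 to 3.73 CPM.

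PCDH19, a protocadherin of the X chromosome (chromosome X, 100291644 to 100410273), was the least even of the group. It stood at 9.5, 1.55 and 3.73 CPM in BD, 6.79, 1.24 and 2.91 CPM in NBD and 3.41 CPM in control replicate 3, so that the first libraries of BD and NBD were the high ones. TMEM25 and TMEM98, membrane proteins that share only a naming stem, ranged over 3.4 to 11.4 CPM and 2.86 to 6.43 CPM. The tight junction gene CLDN23 ranged over 1.04 to 2.29 CPM and was 1 of 8 expressed claudins. MUC13, a transmembrane mucin, ranged over 1.04 to 1.67 CPM and was 1 of 4 expressed MUC genes.

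Among 3 channels and transporters, SLC39A8, a zinc and manganese importer (chromosome 4, 102251041 to 102431258), had the highest level per length. It stood at 26.3, 41.4 and 34.9 CPM in BD, 19.7, 22.2 and 42.1 CPM in NBD and 38.8 CPM in control replicate 3, and had 2 and 0 counts in control replicates 1 and 2 where 631 and 598 would correspond to its median. No other of the 197 expressed solute carrier genes met the rule. P2RX7, an ATP-gated channel, ranged over 1.55 to 3.14 CPM, and the voltage-gated potassium channel gene KCND2 over 1.55 to 3.34 CPM.

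Intracellular signalling gave 10 members. DIAPH2, a formin that nucleates actin (chromosome X, 96684663 to 97604997), stood at 24.0, 24.8 and 23.9 CPM in BD, 23.0, 16.4 and 24.5 CPM in NBD and 27.0 CPM in control replicate 3, with 0 and 1 counts in control replicates 1 and 2 where 432 and 410 would correspond to its median. The 7 libraries of DIAPH2 were close to each other apart from the lower NBD replicate 2. RPS6KA6, a ribosomal S6 kinase (chromosome X, 84058346 to 84187907), stood at 6.97, 8.62 and 7.81 CPM in BD, 8.81, 6.73 and 10.5 CPM in NBD and 10.0 CPM in control replicate 3 and had no count in the low libraries, at least 38.4-fold below its lowest other library.

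The protein kinase D gene PRKD1 ranged over 6.65 to 13.4 CPM and TNIP3, an inhibitor of NF-κB signalling, over 5.12 to 12.6 CPM. Cyclic nucleotide signalling was represented by the adenylate cyclase ADCY1 (3.05 to 7.95 CPM), the phosphodiesterase PDE1C (2.67 to 4.58 CPM) and GUCY1A1, a subunit of soluble guanylate cyclase (1.19 to 4.54 CPM). RASIP1, which binds Ras-family GTPases, ranged over 2.75 to 6.36 CPM, RIPOR3 over 3.63 to 10.5 CPM and SHROOM4, an actin-associated protein, over 2.6 to 4.04 CPM. PDE1C, GUCY1A1 and RASIP1 had no count in either low library.

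Enzymes and proteases gave 9 members. The vanin gene VNN1, a pantetheinase that releases cysteamine and is anchored to the cell surface (chromosome 6, 132681590 to 132714049), stood at 7.41, 6.83 and 8.6 CPM in BD, 18.8, 9.59 and 18.1 CPM in NBD and 20.5 CPM in control replicate 3, with 0 and 2 counts in control replicates 1 and 2. NBD was above BD with no overlap. Its neighbour VNN2 (chromosome 6, 132743870 to 132763459) stood at 1.37, 1.86 and 3.66 CPM in BD, 1.56, 1.66 and 4.78 CPM in NBD and 3.34 CPM in control replicate 3, with 1 and 1 counts in control replicates 1 and 2, and there BD and NBD overlapped.

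PRSS21, a membrane-anchored serine protease known from testis (chromosome 16, 2817180 to 2826304), stood at 5.78, 8.08 and 8.91 CPM in BD, 4.4, 3.67 and 6.4 CPM in NBD and 9.31 CPM in control replicate 3 and had no count in the low libraries, at least 21.0-fold below its lowest other library. The trypsinogen genes PRSS1 (chromosome 7, 142749468 to 142753076) and PRSS2 (chromosome 7, 142760398 to 142774564) are close copies, and how counts divide between them is uncertain. PRSS1 stood at 1.77, 2.91 and 3.52 CPM in BD, 1.37, 2.17 and 4.03 CPM in NBD and 3.14 CPM in control replicate 3, with 3 and 2 counts in control replicates 1 and 2. PRSS2 stood at 3.43, 2.33 and 2.97 CPM in BD, 1.97, 1.47 and 3.35 CPM in NBD and 3.06 CPM in control replicate 3, with 3 and 0 counts in control replicates 1 and 2. Other proteases of the same naming stem went in different directions. PRSS23 was higher in the low libraries, at 102 and 101 CPM against 34.9 to 88.4 CPM elsewhere, and PRSS8 lay within the range of the others. PRSS22 was lower without being silent, at 3.88 and 3.74 CPM against 7.79 to 13.5 CPM, and PRSS12 and PRSS16 were lower too. PRSS3 had 3 and 1 counts in control replicates 1 and 2 and missed the rule, with 0.569 CPM in its lowest other library.

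AOAH, which removes acyl chains from bacterial lipopolysaccharide (chromosome 7, 36512949 to 36724549), stood at 1.23, 2.29 and 4.08 CPM in BD, 1.44, 1.24 and 3.73 CPM in NBD and 3.03 CPM in control replicate 3, with 1 and 0 counts in control replicates 1 and 2. The third libraries and control replicate 3 were the high ones, as in the class II genes. PDK4, a kinase that restrains pyruvate oxidation, ranged over 2.94 to 4.62 CPM with no count in the low libraries. The mitochondrial reductase MTARC2 ranged over 2.75 to 5.31 CPM and the tRNA methyltransferase-related gene TRMT9B over 1.2 to 4.42 CPM.

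Transcription and chromatin gave 12 members, the largest group. HLTF, a helicase-like factor that remodels stalled replication forks (chromosome 3, 149030127 to 149086554), stood at 15.3, 23.6 and 23.2 CPM in BD, 16.5, 18.3 and 31.4 CPM in NBD and 32.2 CPM in control replicate 3, with 0 and 1 counts in control replicates 1 and 2 where 418 and 397 would correspond to its median. The highest values were in NBD replicate 3 and control replicate 3. HDX, a homeobox gene of the X chromosome (chromosome X, 84317874 to 84502479), stood at 12.8, 10.2 and 11.6 CPM in BD, 12.1, 8.27 and 11.9 CPM in NBD and 10.4 CPM in control replicate 3 and had no count in the low libraries, at least 47.2-fold below its lowest other library.

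Zinc finger genes of the ZNF stem gave 4 members of 386 expressed (1.04%), against 0.588% of all expressed genes. ZNF132 stood at 4.62, 2.72 and 4.84 CPM in BD, 4.82, 2.09 and 3.19 CPM in NBD and 3.65 CPM in control replicate 3. ZNF22 stood at 3.22, 1.98 and 2.42 CPM in BD, 2.47, 2.98 and 1.93 CPM in NBD and 2.83 CPM in control replicate 3. Both had no count in the low libraries. ZNF433 stood at 2.89, 2.6 and 2.8 CPM in BD, 2.35, 1.51 and 2.71 CPM in NBD and 2.75 CPM in control replicate 3, with 0 and 1 counts in control replicates 1 and 2. ZNF585B stood at 3.18, 1.36 and 2.28 CPM in BD, 2.35, 1.7 and 2.3 CPM in NBD and 1.71 CPM in control replicate 3, with 0 and 2 counts in control replicates 1 and 2. In each of the 4 the BD and NBD ranges overlapped.

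The BEN domain gene BEND7 ranged over 3.21 to 8.3 CPM, the zinc finger gene ZC4H2 over 3.71 to 7.06 CPM, the TEAD cofactor gene VGLL2 over 2.47 to 5.16 CPM and the LIM-only gene LMO3 over 1.25 to 2.88 CPM. KLF2, a Krüppel-like factor of endothelium and T cells, ranged over 1.4 to 3.11 CPM. PLAGL1, an imprinted zinc finger gene, ranged over 1.47 to 4.93 CPM and was 1 of 20 expressed genes on a list of imprinted genes.

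Germ cell genes gave 2 members. TEX15, which acts in meiosis and transposon silencing, ranged over 1.25 to 3.59 CPM, and SYCP2, a component of the synaptonemal complex, over 1.04 to 2.48 CPM. Of the remaining 3 genes, ARMCX1, an armadillo repeat protein of mitochondria (chromosome X, 101550531 to 101554700), stood at 6.03, 8.7 and 8.19 CPM in BD, 4.18, 5.95 and 8.23 CPM in NBD and 7.76 CPM in control replicate 3 and had no count in the low libraries, at least 23.8-fold below its lowest other library. BEX5, of the brain-expressed X-linked family (chromosome X, 102153708 to 102156057), stood at 1.52, 2.25 and 3.45 CPM in BD, 1.52, 2.05 and 3.42 CPM in NBD and 2.48 CPM in control replicate 3, with 3 and 0 counts in control replicates 1 and 2. CDIP1, a proapoptotic membrane protein, ranged over 1.04 to 2.49 CPM with no count in the low libraries.

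At the edges of the rule, the members with the lowest values in an expressing library were FBXO44 at 1.01 CPM and MUC13 and CDIP1 at 1.04 CPM. Just outside stood MANSC1 at 0.987, CDH12 at 0.976 and ICOSLG at 0.967 CPM. For counts in control replicates 1 and 2, the members nearest the limit were BEND7 with 3 and 3, P2RX7 with 2 and 3 and PRSS1 with 3 and 2. DDIT4L, IDO1 and LRP1B fell outside, with 4 and 0 counts each.

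Of 29 lists of gene families and pathways, 9 held at least 1 of the 65 genes. Besides class II, the lists of solute carriers, claudins, Eph genes, potassium channels, receptors with a GPR or ADGR stem, mucins and imprinted genes held 1 each and the ZNF genes 4. The receptor CHRM3 is on none of these lists. The removal by name bears on these counts: before it, 11 lists held a gene that met both conditions, with GBP5 among 21 expressed guanylate-binding and IFI genes, PIGR among 15 glandular and mucosal secretory genes and SGCE as a second of 20 imprinted genes. In the interferon-stimulated list, which lost no gene by name, 0 of 43 expressed genes met the conditions, although 27 had a log2 ratio below -1 and their median was -1.25. Of the 15 glandular and mucosal genes, 12 were below -1, with a median of -3.33. Clustered protocadherins (4 expressed), HOX genes (15) and serpins (14) held no silent gene before or after the removal.

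The members were spread over 16 autosomes and the X chromosome. The X chromosome held 8 of its 345 expressed genes (2.32%), chromosome 7 held 8 of 514 (1.56%), chromosome 6 held 9 of 609 (1.48%) and chromosome 4 held 5 of 410 (1.22%). Chromosome 1 held 3 of 1157 (0.259%), or 6 (0.519%) with GBP5, PIGR and PDZK1IP1, which were removed by name. With the other removed genes, chromosome 4 would hold 7 (1.71%) and chromosome 7 would hold 9 (1.75%). Chromosomes 2, 9, 13, 15, 21 and 22 held none, before the removal too, with 741, 457, 191, 365, 97 and 249 expressed genes. These shares are descriptions of a set chosen on its values, and HLA and vanin genes that lie side by side are not independent entries.

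**Figure D2:**
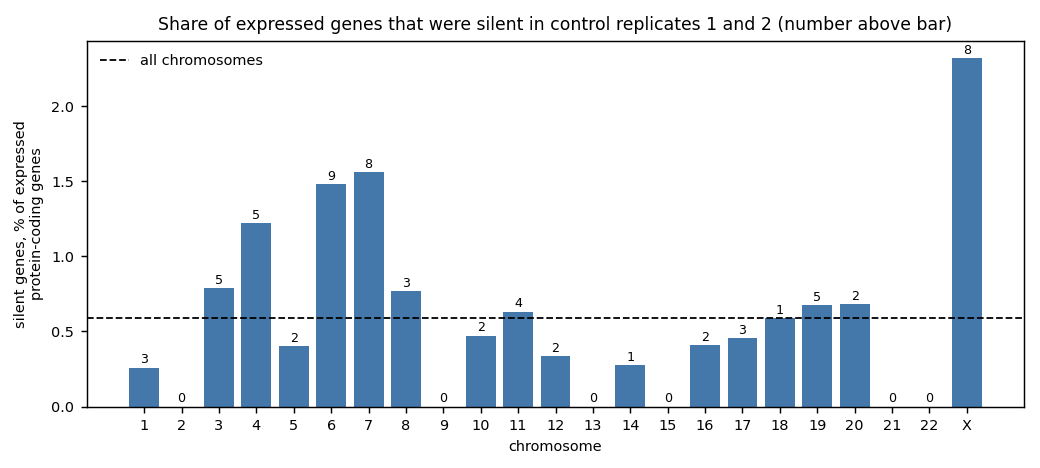
Silent genes as a percentage of expressed protein-coding genes on each chromosome, with the number of silent genes above each bar and the share over all chromosomes as a dashed line. The bar of the X chromosome is the highest, at 2.32%, and chromosomes 2 and 9 are at 0.

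By GENCODE 29 gene starts, 14 of the 65 (21.5%) lay within 1 Mb of another member, and 10 within 0.5 Mb. The same count was not made for other sets of expressed genes, so whether it is high or low is not known. On chromosome 6, HLA-DRA, HLA-DRB5 and HLA-DRB1 followed each other at 90.4 and 59.6 kb, with HLA-DPA1 at 491 kb from HLA-DRB1. The vanins VNN1 and VNN2 lay 49.4 kb apart, and the trypsinogens PRSS1 and PRSS2 10.9 kb apart on chromosome 7. On the X chromosome RPS6KA6 and HDX lay 315 kb apart, and ARMCX1 and BEX5 606 kb apart. AOAH and EPDR1 on chromosome 7 lay 959 kb apart, and the RefSeq start of EPDR1 is a further 237 kb away, beyond 1 Mb in all.

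For most expressed genes around the members, the mean of control replicates 1 and 2 was near the mean of the other 7 libraries. Within 250 kb of a member start lay 183 other expressed protein-coding genes, next to 46 of the members. Of these, 156 (85.2%) were within 2-fold between control replicates 1 and 2 and the other 7 libraries, 19 (10.4%) had a log2 ratio below -1 and 8 (4.37%) above 1. Over all 10975 expressed genes outside the 71, the shares were 86.5%, 8.11% and 5.37%. For the nearest expressed gene on each side (117 genes), 79.5% were within 2-fold and 15.4% were below -1, their median being -0.08.

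**Figure D3:**
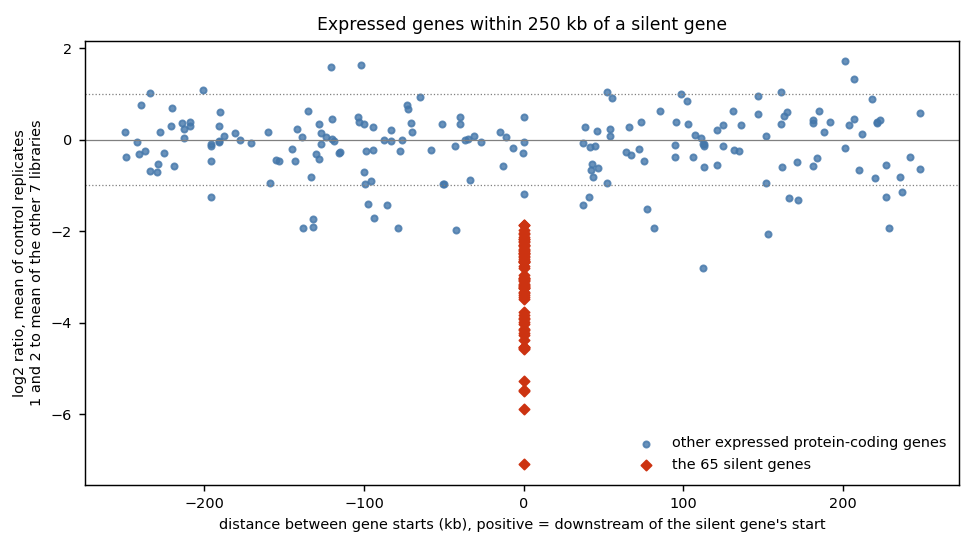
Log2 ratio of the mean of control replicates 1 and 2 to the mean of the other 7 libraries, on CPM + 0.5, for each expressed protein-coding gene within 250 kb of a silent gene, against distance between gene starts in kb. Most neighbours lie between the dotted lines at -1 and 1, while the silent genes, drawn at distance 0, all lie below.

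Single loci can be given as examples, chosen after their values were seen. HPS3 and GYG1, on either side of HLTF, had 82.1 and 70.1 CPM and 38.8 and 40.8 CPM in the low libraries, against 74.0 to 88.5 and 23.1 to 38.2 CPM in the others. NFKB1, 70.1 kb from SLC39A8, stood at 104 and 110 CPM against 62.4 to 119 CPM. The ribosomal protein gene RPS12, beside the vanins, stood at 617 and 691 CPM against 276 to 664 CPM.

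In the ARMCX family, ARMCX3 stood at 15.0 and 12.7 CPM in the low libraries against 10.8 to 20.1 CPM, and ARMCX5 at 15.8 and 14.0 CPM against 12.5 to 16.4 CPM, where ARMCX1 had no count. ARMCX4, 132 kb from ARMCX1, was lower, at 0.609 and 0.175 CPM against 1.28 to 5.81 CPM. In the BEX family, BEX3 stood at 58.7 and 65.5 CPM against 46.0 to 66.2 CPM and BEX2 at 0.554 and 0.817 CPM against 2.13 to 5.16 CPM. Members of a family on the X chromosome therefore ranged from no count to a level within that of the other libraries.

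SYCP2 shares its promoter region with FAM217B, which starts 109 bases away on the opposite strand and inside the SYCP2 window printed above. FAM217B had 24.4 and 21.5 CPM in the low libraries and 13.5 to 18.7 CPM in the others, while SYCP2 had 0 and 1 counts. Distances depend on the annotation used for a start. Of 53 members with both starts, 41 had them within 1 kb of each other and 7 over 50 kb apart.

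A RefSeq promoter window was found for 53 of the 65 members and for 9126 of the 11046 expressed genes. The members' windows held a median of 19 CG dinucleotides (quartiles 5 and 27) against 27 (19 and 35) over all expressed genes. The ratio of observed to expected CpG was at least 0.6 in 31 members (58.5%) and in 7812 expressed genes (85.6%), and the medians of the ratio were 0.696 and 0.850. Low ratios went with TRIM31 (0.0674), HLA-DRB1 (0.0714), SELENOP (0.0789), TNIP3 (0.0987) and VNN2 (0.107), and high ones with FBXO44 (1.08), KLF2 (1.00) and SYCP2 (0.974). Both kinds of promoter were thus present, with a larger share of the CpG-poor kind than among all expressed genes. The expressed genes were not matched to the members for level, and the members lie mostly in the lower part of the expressed range. Whether the larger share goes with low level was not tested.

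**Figure D4:**
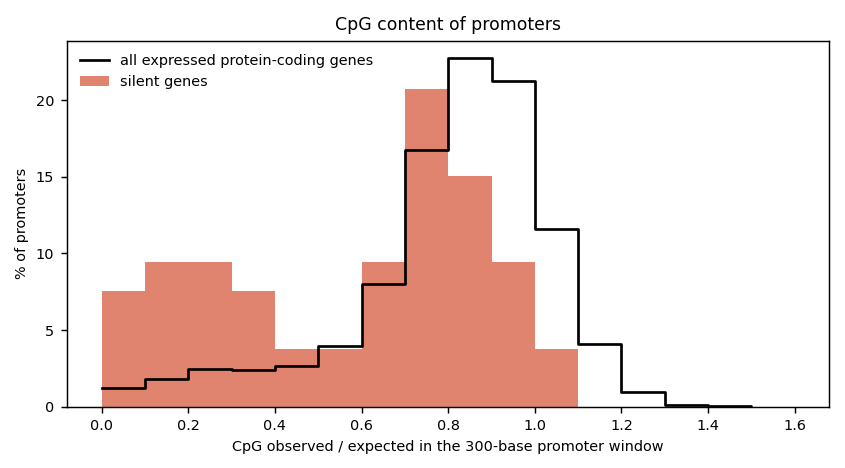
Share of promoters, in percent, by the ratio of observed to expected CpG in the 300-base window, for 53 silent genes (filled) and 9126 expressed protein-coding genes (line). The silent genes have a second group of bars at ratios below 0.4 that is small among all expressed genes.

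Short motifs were looked for on both strands of the same windows. TATAAA, the TATA box letters, stood in 5 of 53 members (9.43%) and 5.45% of expressed genes. TGANTCA, the AP-1 letters, stood in 5 (9.43%) and 4.31%. CCAAT stood in 23 (43.4%) and 37.5%. For NF-κB, only a narrow form of the consensus decamer was searched, and it stood in 0 and 0.625%. Wider forms of that decamer were not searched, so the 0 does not cover them. No one of these motifs contains another. Median exon length was 5187 bases for members and 5287 for all expressed genes.

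Whether the genes differ between the sorted subpopulations was tested next. The rule did not use that contrast, but it did require 1 CPM in each of these libraries and in control replicate 3, and low members such as CDIP1 (1.04 to 1.29 CPM in NBD) and C1QTNF1 (1.12 to 1.40 CPM in NBD) lie at that floor. In the edgeR quasi-likelihood fit to all 9 libraries, 3 of 16921 genes (0.0177%) were called at a Benjamini-Hochberg adjusted p under 0.05 for BD against NBD, and no member was. No member reached an unadjusted p under 0.05 there, and DESeq2 called 57 genes (0.337%), again no member. Of the 65 genes, 38 had a higher estimate in BD and 27 in NBD, while 48.4% of all genes tested were higher in BD. The median log2 fold change was 0.07 for the members and -0.02 over all genes tested. The standard errors in this fit are large, with a median of 1.13, because the control libraries of these genes run from 0 to full level and the groups share an estimate of spread.

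With control replicates 1 and 2 left out the median standard error of the members was 0.36. Of 18832 genes, 9 were called (0.0478%), none a member. An unadjusted p under 0.05 was reached by 3 members (4.62%) and by 1496 genes overall (7.94%). VNN1 was lower in BD, at 7.61 ± 0.902 CPM against 15.5 ± 5.14 CPM in NBD (SD, n = 3), a log2 fold change of -1.14 ± 0.28 (SE, edgeR unadjusted p = 0.00228, adjusted p = 0.448). C1QTNF1 was at 2.55 ± 0.458 against 1.24 ± 0.148 CPM, a log2 fold change of 0.95 ± 0.33 (edgeR adjusted p = 0.604), and CDIP1 at 2.27 ± 0.29 against 1.18 ± 0.125 CPM, 0.83 ± 0.34 (edgeR adjusted p = 0.627). None of these differences passed the threshold.

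Ranges that did not overlap between BD and NBD were few. BD lay above NBD in 5 members (C1QTNF1, CDIP1, CLMP, EPDR1 and RASIP1), 7.69% of the 65, while 17.9% of all expressed protein-coding genes showed this. BD lay below NBD in VNN1 alone, 1.54% of the members, against 3.65% of expressed genes.

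Control replicate 3, the control library that expressed the genes, was compared with the 6 sorted libraries, the lone library being assumed to vary like the sorted groups. No gene of 18832 was called (0.0%), by edgeR or by DESeq2, and 139 genes (0.738%) had an unadjusted p under 0.05 in edgeR. VNN1 was the member among these, at 20.5 CPM, with a log2 fold change of 0.84 ± 0.34 (edgeR unadjusted p = 0.0335, adjusted p = 1.00). The estimate was above 0 for 56 of the 65 genes and for 46.8% of all genes tested, with medians of 0.25 and -0.02. Control replicate 3 was the highest of the 7 libraries for 20 of the 65 genes and the lowest for none, a count not made over all expressed genes.

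**Figure D5:**
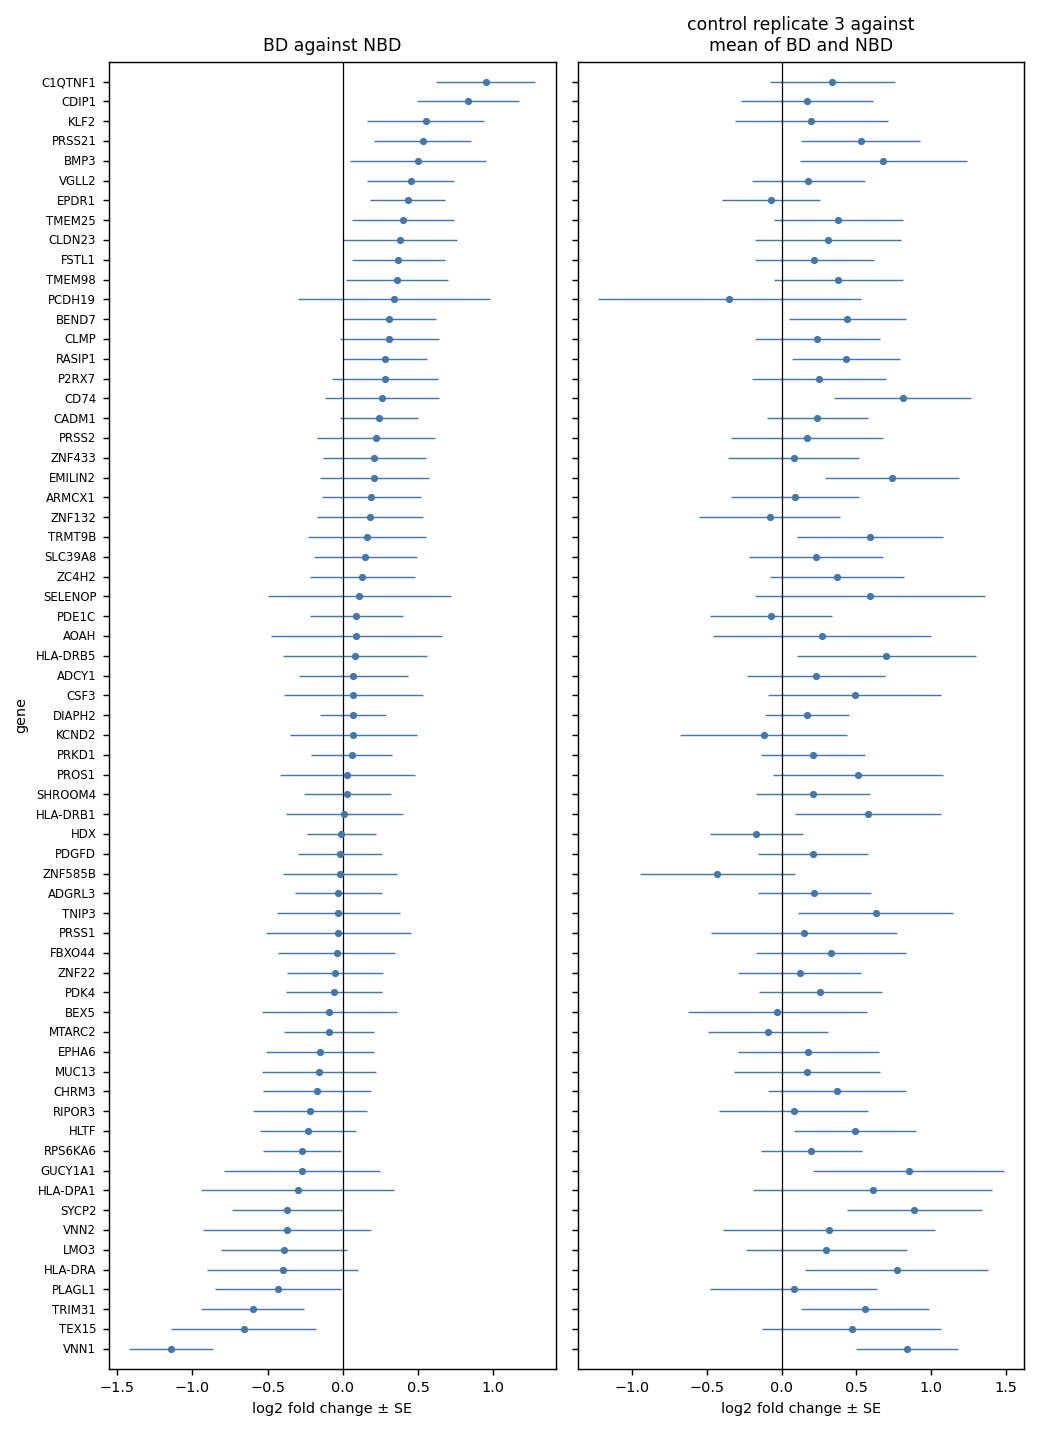
Log2 fold change ± SE of each of the 65 genes for BD against NBD (left) and for control replicate 3 against the mean of BD and NBD (right), from the edgeR fit to 7 libraries, ordered by the left panel. On the left 38 points lie above 0 and VNN1 lies lowest at -1.14, and on the right 56 points lie above 0.

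Within the 7 expressing libraries, the ratio of the highest to the lowest library had a median of 2.32 among members and of 1.74 among 8630 expressed genes with medians in the same range of CPM. NBD replicate 2 was the lowest library for 37 of the 65 genes and the highest for none. Its median deviation from the gene mean was -0.485 on the log2 scale, against -0.229 and 0.135 in the other NBD libraries, -0.166 to 0.216 in BD and 0.282 in control replicate 3. These counts and deviations were not taken over all expressed genes. Whether they reflect shifts of whole libraries or of these genes was therefore not tested.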

How the data were processed

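The values are raw read counts per gene, deposited by the authors with no normalization, 1 table per library. Per the submitters' processing notes, the build was GRCh38 and the tools were STAR 2.7.11b, featureCounts, Trimmomatic 0.39 and FastQC 0.74. Strand setting, annotation release and the rule for multi-mapped reads: not given in the sources used here. Counts of overlapping, antisense and near-identical genes are therefore uncertain. Gene type, coordinates and exon length came from GENCODE 29, which held 57338 of 78899 IDs, 19850 of them protein-coding. Promoter windows came from RefSeq (GRCh38.p14) and were matched by symbol.

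CPM used the plain library total. The test was edgeR 4.0.16 (quasi-likelihood, filterByExpr, TMM scaling) in R 4.3.3, two-sided, with a term per group and Benjamini-Hochberg adjustment over all genes tested, 6 residual degrees of freedom with 9 libraries. It was also run on simulated counts with the same mean for a gene in all libraries and known fold changes added to genes of higher level. The simulated counts lacked the split among the control libraries. They do not show how often a change in the members would be called. Control replicate 3 was compared with the mean of BD and NBD in 7 libraries. The SE of an edgeR fold change was back-calculated, as its absolute log2 value divided by the square root of the F statistic. DESeq2 1.42.0 and limma 3.58.1 were alternatives, with other filters, size factors, thresholds of the rule, the replicate number as a block, and each library left out in turn. Samples were grouped by their titles.

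The members, the 29 lists and the tests were chosen with earlier results of these data known. Role groups and the CCAAT motif were chosen after seeing the members. Genes given in every library are the 12 members with the highest CPM per kb, those within 1 Mb of another member and those of a family with 2 or more members. PCDH19 was added after its values were seen.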

Additional observations from a re-analysis of the deposited data

How the results depend on the processing

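No member was called for BD against NBD or for control replicate 3 against the sorted libraries in any of 17 and 11 alternatives. Most of the 17 kept control replicate 1 or 2, whose low values the rule fixed. The members' median standard error was 1.13 in the fit to all 9 libraries and 0.36 without control replicates 1 and 2. Most of the 17 therefore add little to the absence of calls. The number of genes called for BD against NBD, 3 in the fit to all libraries, was 131 with no filter, 57 with DESeq2, 5 with limma-voom, 5 with the 6 sorted libraries alone, 9 without control replicates 1 and 2, and 0 to 16 with 1 library left out, 16 of them without control replicate 3 and 0 without each of BD replicates 1, 2 and 3, NBD replicates 2 and 3 and control replicate 1. With no filter, 1 gene was called for control replicate 3. With the replicate number as a block 0 genes were called and the members' median for BD against NBD was 0.18. Same-numbered BD and NBD libraries correlated in their deviations at 0.707, 0.0956 and 0.402, and BD replicate 2 correlated at 0.526 with NBD replicate 3, so the numbers are not taken as pairs. That median, 0.07, ran from -0.07 (without NBD replicate 2) to 0.42 (without NBD replicate 3), and was -0.03 without BD replicate 3, while for control replicate 3 it ran from 0.19 to 0.42. The log2 fold change of VNN1 for BD against NBD ran from -1.38 to -0.92, with adjusted p from 0.118 to 1.00.

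The rule gave 23 genes at 0 counts in place of 3, 144 at 10 counts, 128 at 0.5 CPM and 37 at 2 CPM. It gave 69 with TMM-scaled totals and 97 with totals without mitochondrial rRNA. Leaving out 1 library gave 65 to 85 genes, the most without control replicate 2, and 83 without control replicate 1. All 65 members were among the genes of each wider rule. Depth limits the members of low level: 27 had a median under 3 CPM.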

Other observations

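The same limits of counts and CPM were met by 13 of 831 expressed genes with a GENCODE type other than protein-coding (1.56%), and by 1 of 275 expressed genes with no type in GENCODE 29. The long non-coding gene CARMN (chromosome 5, 149406689 to 149432835, GRCh38) had no count in control replicates 1 and 2. It stood at 39.8, 51.1 and 74.4 CPM in BD, 43.3, 9.82 and 19.8 CPM in NBD and 42.9 CPM in control replicate 3. DANT2, on the X chromosome, also had no count in these 2 libraries and stood at 10.5, 7.26 and 9.71 CPM in BD, 21.3, 2.75 and 4.64 CPM in NBD and 5.04 CPM in control replicate 3. LINC02518, LINC01224, MIR4500HG and SAMSN1-AS1 had no count there either. LINC02518 stood at 2.09 to 7.22 CPM in the other 7 libraries. For antisense genes such as SAMSN1-AS1, reads of the partner gene cannot be told apart where the strand setting is unknown. These genes were chosen on these values, and no test was made.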
